A study of Mus musculus with 6 samples.

Results

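Effector and inflammatory cytokine genes were followed in RNA-seq libraries of CD8+ T cells from mouse spleen, in 3 KO libraries and 3 control libraries. KO mice carried Cd4cre together with floxed alleles of Glut10 (Cd4creGlut10fl/fl), and control mice carried Cd4cre alone, so both groups express Cre recombinase. The Cd4cre transgene is active from the thymus on, before CD4 and CD8 lineages part, and Glut10 is the protein of Slc2a10, a facilitative hexose transporter. Strain, age and sex are not given in the labels, nor is it stated that each library is a separate mouse, so the p-values reflect spread among these libraries, some of which may be technical. Lymphoma appears in the series title, and tumour status is not among the labels. The 10 genes were chosen by name among 35458 gene identifiers: Ifng, Tnf, Il2 and Fasl as effector molecules of T cells, Tgfb1 and Il10 as regulatory cytokines, and Il1b, Il1a, Il6 and Csf1 as inflammatory cytokines that myeloid cells make. Values are FPKM, fragments per kilobase of exon scaled to the fragments of each library.

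CD8+ T cells act on infected and malignant cells by direct killing and by secreted cytokines. Resting cells hold little cytokine mRNA, and engagement of the T cell receptor brings a rapid and short-lived burst of transcription, driven by NFAT, AP-1 and NF-kappaB factors at the promoters. Interleukin 1, interleukin 6 and colony-stimulating factor 1 are mostly products of macrophages, neutrophils, mast cells and stromal cells. In an RNA sample of sorted CD8+ T cells such transcripts can come from T cells or from other cells carried along.

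Promoters were available from RefSeq (build GRCm38.p6) for 9 of the 10 genes, matched by symbol, and the 250 bases before the start are shown for 5 of them. Csf1, Il1b and Tnf are shown because their estimates were lower in KO libraries, and Ifng and Il2 because both were high in the same KO libraries. Tgfb1, Il6, Il1a and Fasl also had lower estimates and are not shown. The stretches are chr3:107760470-107760719 on the minus strand for Csf1, chr2:129371140-129371389 on the minus strand for Il1b, chr17:35202008-35202257 on the minus strand for Tnf, chr10:118440796-118441045 on the plus strand for Ifng and chr3:37125955-37126204 on the minus strand for Il2. Capitals mark matches, on either strand, to the TATA box (TATAAA), a form of the core bound by NFAT (TGGAAA) or the NF-kappaB consensus. Other forms of the NFAT core were not searched and are not marked.
Csf1: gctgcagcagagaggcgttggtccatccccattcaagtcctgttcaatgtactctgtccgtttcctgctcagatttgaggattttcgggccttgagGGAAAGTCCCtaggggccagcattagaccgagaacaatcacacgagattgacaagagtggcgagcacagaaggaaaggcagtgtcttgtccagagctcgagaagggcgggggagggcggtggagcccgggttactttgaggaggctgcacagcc
Il1b: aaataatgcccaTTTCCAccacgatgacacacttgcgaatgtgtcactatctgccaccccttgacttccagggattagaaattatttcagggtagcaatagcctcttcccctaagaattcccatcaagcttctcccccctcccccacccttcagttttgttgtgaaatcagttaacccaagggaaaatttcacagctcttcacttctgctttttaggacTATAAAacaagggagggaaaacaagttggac
Tnf: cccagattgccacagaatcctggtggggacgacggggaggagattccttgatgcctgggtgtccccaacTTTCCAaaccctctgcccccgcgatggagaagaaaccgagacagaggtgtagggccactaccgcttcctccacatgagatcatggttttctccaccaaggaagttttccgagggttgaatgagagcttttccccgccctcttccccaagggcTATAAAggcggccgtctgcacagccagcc
Ifng: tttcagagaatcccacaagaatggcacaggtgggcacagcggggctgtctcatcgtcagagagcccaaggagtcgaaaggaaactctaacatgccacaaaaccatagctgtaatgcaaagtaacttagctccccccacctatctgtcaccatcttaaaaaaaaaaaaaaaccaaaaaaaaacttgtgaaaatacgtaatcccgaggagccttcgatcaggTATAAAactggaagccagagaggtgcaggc
Il2: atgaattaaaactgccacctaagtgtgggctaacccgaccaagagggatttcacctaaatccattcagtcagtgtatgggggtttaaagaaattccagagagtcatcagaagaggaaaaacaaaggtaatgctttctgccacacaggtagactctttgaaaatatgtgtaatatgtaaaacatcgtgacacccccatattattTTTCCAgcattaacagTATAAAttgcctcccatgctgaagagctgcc
The TATA box matched in Il1b, Tnf, Ifng and Il2, beginning 31, 29, 30 and 31 bases before the start, and it occurred in 12.4% of 32851 promoters of this length. This form of the NFAT core, TGGAAA, matched once in each of Il1b, Tnf and Il2, at 238, 181 and 47 bases before the start, against 18.6% of all promoters. Csf1 held none of these letters but matched the NF-kappaB consensus 154 bases before the start, which 7.25% of all promoters did. An AP-1 motif (TGANTCA, 6.75% of all promoters) was found in none of these 5 stretches and in those of Il1a and Il6. Among the stretches not shown, the NF-kappaB consensus also matched in Tgfb1 and Il6, the TATA box in Il1a and the NFAT core in Il6. No matches overlapped another motif in the stretches shown. A match describes letters in this window and is not a measured binding site.

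The libraries differed in depth and in the RNA of cell type markers. The FPKM steps implied 3420291, 14683394 and 3004540 fragments in KO 1, KO 2 and KO 3, against 11840640 to 15036282 in the controls. Slc2a10, the targeted gene, had 0 fragments in each KO library, against 4, 2 and 2 in control 1, 2 and 3, which is too few to show a loss at this depth. The summed FPKM of 10 T cell markers was 1544, 2458 and 1598 in KO 1, 2 and 3, against 1574, 573 and 406 in control 1, 2 and 3, and none of these markers was at 0. Every KO library lay above every control for 4 of these 10 and for 3 of 6 B cell markers. Of all genes tested, 6.70% did so. Every KO library lay below every control for 0 markers of these 2 lists. Neutrophil markers (11 genes) summed to 71.9 to 705 FPKM in KO libraries, against 435, 16730 and 29150 in control 1, 2 and 3. The range in KO libraries, against that in control libraries, was 330 to 466 against 69.8 to 241 FPKM for 6 B cell markers and 4.39 to 9.68 against 0.952 to 2.90 for 4 NK cell markers. It was 8.05 to 18.9 against 4.01 to 18.4 FPKM for 6 dendritic cell markers and 7.44 to 39.1 against 26.6 to 33.9 for 4 markers of CD4+ T cells. In that last list Ctla4 alone measured 31.45 FPKM in KO 2. Its groups and those of Foxp3 overlapped. Cd4 and Zbtb7b, 2 of the 4, had every KO library below every control, where 9.44% of all genes tested did so. The NK cell receptor Klra8 was at 0 in KO 3 and control 3. Of 814 protein-coding receptor genes of smell and pheromone sensing, normally used by sensory neurons, 64.7% and 67.3% had a fragment in KO 1 and KO 3, 22.8% in KO 2, and 29.2% to 44.1% in the controls.

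Across all 10 genes, none passed the test between KO and control cells, with limma adjusted p from 0.417 to 0.921. The same test called 0 of 13956 genes (0%), although 1646 genes (11.8%) had an unadjusted p under 0.05, among them 4 of the 10: Csf1, Tnf, Tgfb1 and Il1b. All 10 genes were above the low-value filter of 1 FPKM in at least 3 libraries. Ifng reached 1 FPKM in KO 1, KO 3 and control 1 only, so it was tested through the KO libraries where it was high. Fasl reached it in KO 1, KO 2 and control 1 only. KO 1 and KO 3 had 18934 and 19268 genes at 1 FPKM or more, against 12200 in KO 2 and 12559 to 13713 in the controls. The set of genes tested, and shares over it, therefore depend partly on those 2 libraries. The log2 difference, KO minus control on the log2(FPKM + 1) scale, was below 0 for 7 genes and above 0 for 3, with a median of -0.82 beside 0.10 over all genes tested. Quantile normalization placed the median of all genes at -0.12, and no direction of the 10 genes turned with it. Every KO library lay below every control for 3 genes, Tnf, Tgfb1 and Csf1, or 30% of the members where 9.44% of all genes tested did so. Every KO library lay above every control for 0 members, where 6.70% of all genes did so.

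**Figure D1:**
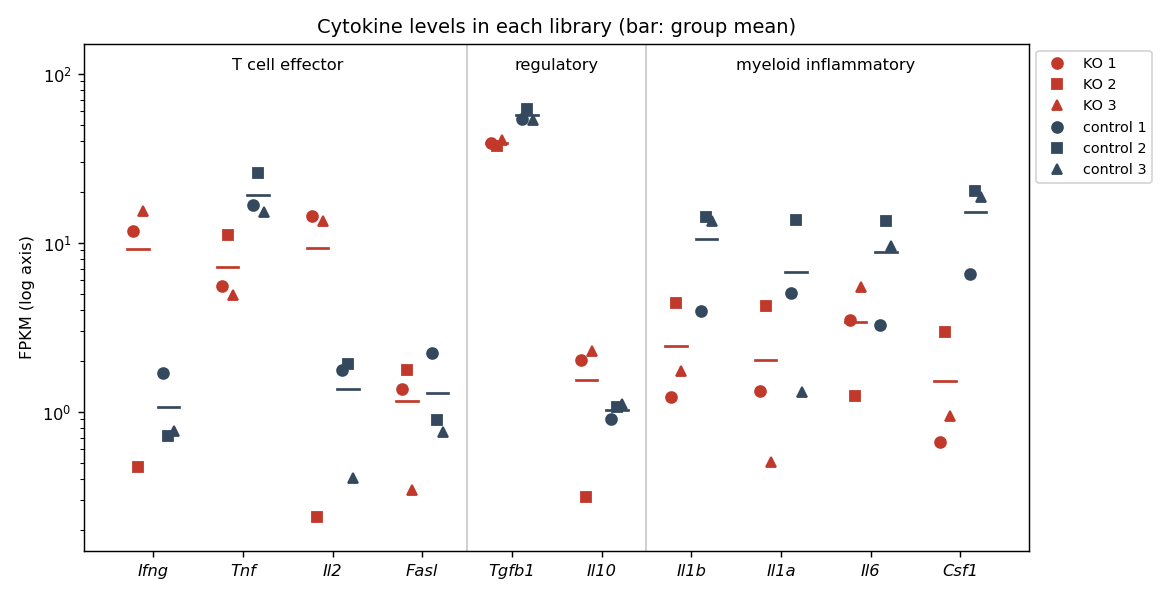
FPKM of the 10 cytokine genes (log axis) in each KO library (red, left) and each control library (dark, right); marker shapes give the replicate and bars the group means. The 3 KO values of Tnf, Tgfb1 and Csf1 lie below all 3 control values, while Ifng, Il2 and Il10 are high in KO 1 and KO 3 and low in KO 2.

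Ifng (ENSMUSG00000055170), the macrophage-activating interferon of cytotoxic and helper T cells, measured 11.7, 0.473 and 15.4 FPKM in KO 1, 2 and 3, against 1.70, 0.720 and 0.770 FPKM in control 1, 2 and 3. KO 1 and KO 3 lay above every control, and KO 2 lay below every control. The means were 9.21 ± 7.79 FPKM in KO cells and 1.06 ± 0.549 in control cells (SD, n = 3 each). On the log2 scale the difference was 1.74 (SE 0.92, limma adjusted p = 0.421). These values rest on 52, 9 and 60 fragments in KO 1, 2 and 3, against 26, 14 and 15 in the controls. The 95% Poisson interval ran from 8.77 to 15.4 FPKM in KO 1 and from 11.8 to 19.9 in KO 3, and from 0.216 to 0.899 in KO 2. Intervals and floors cover counting error only. Gm49751 shares 25.9% of the exon bases of Ifng on the same strand, and its highest value in any library was 0.062 FPKM, in control 1. How the counting treated reads in the shared bases is not given in the sources used here.

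Il2 (ENSMUSG00000027720), the T cell growth factor, followed the same order. It measured 14.3, 0.238 and 13.4 FPKM in KO 1, 2 and 3, against 1.77, 1.92 and 0.407 FPKM in control 1, 2 and 3. KO 1 and KO 3 were the highest libraries and KO 2 the lowest of all 6. The difference of 1.53 on the log2 scale (SE 1.02) had a limma adjusted p of 0.471. Behind it stood 56, 4 and 46 fragments in the KO libraries, against 24, 33 and 7 in the controls. The value in KO 2, 4 fragments, was next to the floor of 3 fragments (0.179 FPKM). KO 1 stood 24.8 times above KO 2 for Ifng and 60.1 times for Il2.

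The direction of both genes depended on KO 1 and KO 3, and their size on the model. With limma-voom on implied fragments the log2 difference was 0.71 for Ifng (limma adjusted p = 0.886) and 0.05 for Il2 (limma adjusted p = 0.993). With KO 2 set against the controls alone, the log2 difference was -0.45 for Ifng and -0.86 for Il2. Without KO 2, Ifng differed by 2.84 (limma adjusted p = 0.00260) and Il2 by 2.72 (limma adjusted p = 0.00568), in a fit that called 12.1% of all genes higher. Ifng passed the low-value filter only with KO 1 and KO 3 high, so its p-value there gives no separate support for a difference. In the shallow libraries Ifng and Il2 stood above the 95th percentile of the sensory receptor genes, which was 5.18 FPKM in KO 1 and 5.80 FPKM in KO 3. Of the 814 receptor genes, 14 and 10 were at or above the Ifng value in KO 1 and KO 3, and 11 and 11 at or above the Il2 value. KO 1 and KO 3 both exceeded KO 2 and every control for 3 of the 10 cytokines (Ifng, Il2 and Il10) and for 24.2% of all genes tested. The part of the broad signal from receptor genes in these cytokine values was not tested.

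**Figure D2:**
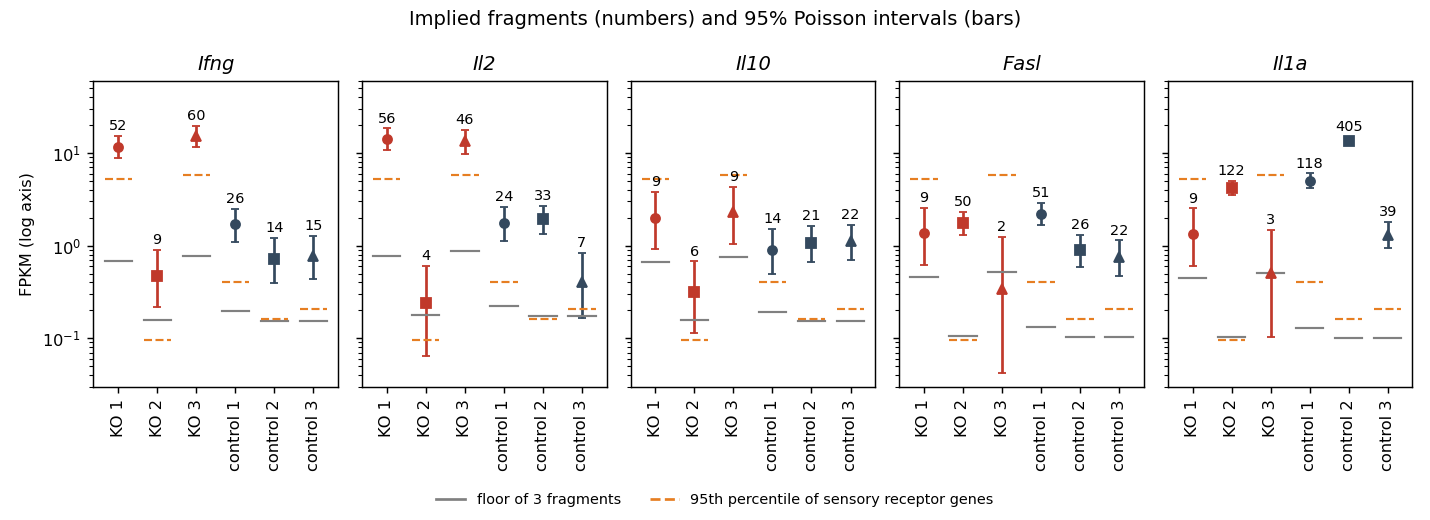
FPKM (log axis) of Ifng, Il2, Il10, Fasl and Il1a in each library, with 95% Poisson intervals as bars and implied fragments as numbers. Grey lines give the floor of 3 fragments and dashed lines the 95th percentile of 814 sensory receptor genes; Ifng and Il2 lie above the dashed line in KO 1 and KO 3, and Il10, Fasl and Il1a below it.

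Tnf (ENSMUSG00000024401), the inflammatory cytokine that T cells and myeloid cells both secrete, was lower in each KO library. It measured 5.53, 11.1 and 4.87 FPKM in KO 1, 2 and 3, against 16.6, 26.0 and 15.3 FPKM in control 1, 2 and 3. The groups did not overlap, and KO 2 came closest to the controls. The log2 difference was -1.35 (SE 0.37, 95% interval -2.24 to -0.47 before adjustment, limma adjusted p = 0.417). It rested on 31, 266 and 24 fragments in KO 1, 2 and 3, against 323, 639 and 376 in the controls. The 95% Poisson interval of KO 2 ended at 12.5 FPKM and that of control 3 began at 13.8, for counting error within these libraries alone. Tnf had a limma adjusted p of 0.0168 without KO 2, where the difference was -1.67 and 0.960% of all genes were called lower. Its difference was -0.71 with KO 2 as the lone KO library and -1.19 with control 1 as the lone control.

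Fasl (ENSMUSG00000000817), the ligand by which T cells trigger death of cells that carry Fas, was low in every library. It measured 1.36, 1.76 and 0.344 FPKM in KO 1, 2 and 3, against 2.22, 0.894 and 0.755 FPKM in control 1, 2 and 3. The groups overlapped and the log2 difference was -0.10 (SE 0.41, 95% interval -1.09 to 0.89, limma adjusted p = 0.921). KO 3 held 2 fragments of Fasl, under the floor of 3 fragments (0.516 FPKM), and KO 1 held 9. In the deeper libraries 50 fragments in KO 2 compared with 51, 26 and 22 in the controls. The sign was positive without KO 3 (0.21) or without control 1 (0.18).

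Tgfb1 (ENSMUSG00000002603), whose product restrains T cell activation and is made by many blood cells, was the highest of the 10 in both groups. It measured 38.9, 37.3 and 40.3 FPKM in KO 1, 2 and 3, against 54.1, 62.2 and 53.6 FPKM in control 1, 2 and 3. The KO libraries lay close together, with a coefficient of variation of 3.76% against 8.58% in the controls, and below every control. The log2 difference was -0.53 (SE 0.17, 95% interval -0.95 to -0.12 before adjustment, limma adjusted p = 0.417). This gene had the firmest counts, 670, 2765 and 610 fragments in the KO libraries against 3229, 4714 and 4063 in the controls. It was the least affected by library choice, with differences of -0.58 without KO 1 and KO 3, -0.47 without control 2 and control 3, and from -0.57 to -0.46 with each library left out singly.

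Il10 (ENSMUSG00000016529), an anti-inflammatory cytokine, measured 2.01, 0.312 and 2.29 FPKM in KO 1, 2 and 3, against 0.903, 1.07 and 1.12 FPKM in control 1, 2 and 3. As with Ifng and Il2, KO 1 and KO 3 were highest and KO 2 lowest. The fragments were few, 9, 6 and 9 in the KO libraries against 14, 21 and 22 in the controls. The 95% Poisson intervals of KO 1 (0.918 to 3.81 FPKM) and KO 3 (1.05 to 4.34 FPKM) took in values of the controls. Of the receptor genes, 11.9% in KO 1 and 11.1% in KO 3 were at or above Il10. The log2 difference of 0.21 (SE 0.41, limma adjusted p = 0.811) was -0.03 without KO 3 and -0.63 without KO 1 and KO 3.

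Csf1 (ENSMUSG00000014599), the growth factor of macrophages, showed the largest difference of the 10 genes. It measured 0.664, 2.95 and 0.945 FPKM in KO 1, 2 and 3, against 6.49, 20.3 and 18.6 FPKM in control 1, 2 and 3. The groups did not overlap, and control 1 lay between the KO libraries and the other controls. Means of 1.52 ± 1.25 FPKM in KO cells and 15.1 ± 7.54 in control cells (SD, n = 3 each) gave a log2 difference of -2.64 (SE 0.54, 95% interval -3.96 to -1.33 before adjustment, limma adjusted p = 0.417). It rested on 12, 229 and 15 fragments in KO 1, 2 and 3, against 406, 1613 and 1476 in the controls. The interval of KO 2 ended at 3.36 FPKM and that of control 1 began at 5.88. The limma adjusted p was 0.00968 without KO 2 (difference -3.02) and 0.0436 without control 1 (difference -3.13), where 1.55% of all genes were called lower. The difference was -1.89 with KO 2 as the lone KO library and -1.68 with control 1 as the lone control.

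Il1b (ENSMUSG00000027398), the inflammasome-processed pyrogen of myeloid cells, measured 1.23, 4.39 and 1.75 FPKM in KO 1, 2 and 3, against 3.94, 14.3 and 13.5 FPKM in control 1, 2 and 3. KO 2 lay above control 1, so the groups overlapped there, and control 2 and 3 stood apart. The log2 difference of -1.68 (SE 0.57, limma adjusted p = 0.417) was -0.62 with control 1 as the lone control and -0.93 with KO 2 as the lone KO library. KO 1 and KO 3 held only 8 and 10 fragments, beside 123 in KO 2 and 89, 409 and 387 in the controls.

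Il1a (ENSMUSG00000027399), which acts through the same receptor and is released by dying cells, measured 1.33, 4.21 and 0.506 FPKM in KO 1, 2 and 3, against 5.05, 13.7 and 1.31 FPKM in control 1, 2 and 3. Control 2 was highest and the groups overlapped through control 3. The fragments were 9, 122 and 3 in the KO libraries, so KO 3 was at the floor, against 118, 405 and 39 in the controls. The log2 difference was -1.16 (SE 0.78, 95% interval -3.04 to 0.72, limma adjusted p = 0.475). It was -0.51 without control 2, -1.84 without control 3 and -0.18 with KO 2 as the lone KO library. Gm14023 on the opposite strand covers 11.2% of its exon bases, and the strand setting of the counting is not given in the sources used here.

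Il6 (ENSMUSG00000025746), a pyrogenic cytokine that also supports lymphocytes, measured 3.49, 1.23 and 5.48 FPKM in KO 1, 2 and 3, against 3.27, 13.4 and 9.61 FPKM in control 1, 2 and 3. Control 1 lay within the KO range, and control 2 and 3 lay above it. The log2 difference was -1.11 (SE 0.60, 95% interval -2.55 to 0.34, limma adjusted p = 0.421). With control 1 as the lone control it was -0.09, and with KO 2 as the lone KO library -1.96. The values rest on 29, 44 and 40 fragments in the KO libraries, against 94, 489 and 351 in the controls.

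Control 2 and control 3 both exceeded control 1 and every KO library for Il1b, Il6 and Csf1, or 3 of the 10 genes, where 15.4% of all genes tested did so. Markers of several other cell types were high in the same 2 libraries. Of 11 neutrophil markers, 3 had every KO library below every control, where 9.44% of all genes tested did so. S100a8 measured 64.9, 20.2 and 170 FPKM in KO 1, 2 and 3, against 109, 4503 and 7643 FPKM in control 1, 2 and 3. Mast cell and basophil markers (4 genes) summed to 35.5, 78.8 and 102 FPKM in KO 1, 2 and 3, against 96.5, 1044 and 696 FPKM in control 1, 2 and 3, with 2 of the 4 lower in every KO library. Erythroid markers (4 genes) summed to 3.73, 2.84 and 29.9 FPKM in KO 1, 2 and 3, against 5.42, 1875 and 858 FPKM in control 1, 2 and 3. Macrophage and monocyte markers (12 genes) did not follow 1 pattern. Their sum, 408 to 2052 FPKM in KO libraries and 2131 to 4822 in the controls, was mostly Lyz2, the lysozyme of myeloid cells. The mean log2 level of the list was 4.50, 2.84 and 5.19 in KO 1, 2 and 3, against 5.06, 5.61 and 4.81 in control 1, 2 and 3, and 3 of its genes were lower in every KO library. Marco, a receptor of splenic macrophages, measured 20.2, 0.389 and 110 FPKM in KO 1, 2 and 3, against 91.4, 24.4 and 1.11 FPKM in control 1, 2 and 3. None of the neutrophil, mast cell or macrophage markers was at 0 in any library. S100a8, Lyz2 and Marco were chosen after their values were seen. Their part in the differences of Csf1, Il1b, Il6 and Tnf was not tested, and in bulk RNA fewer cells of a type and less RNA per cell cannot be told apart.

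**Figure D3:**
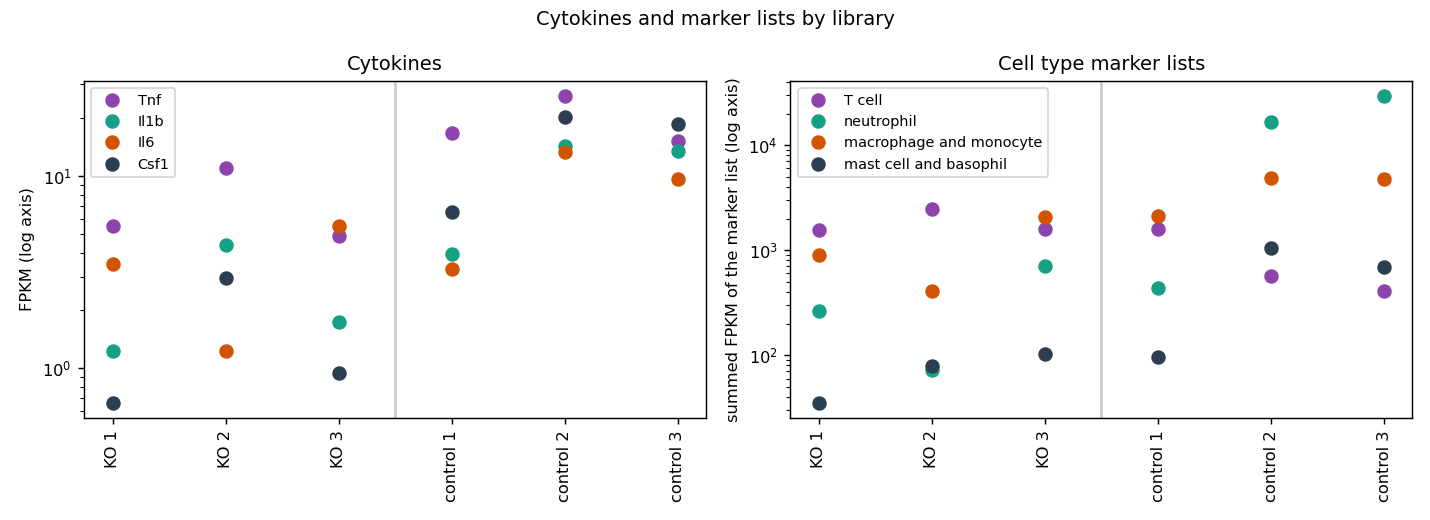
FPKM of Tnf, Il1b, Il6 and Csf1 (left) and summed FPKM of marker lists of 4 cell types (right) in each library, both on log axes, with KO libraries left of the grey line and controls right of it. Il1b, Il6, Csf1 and the neutrophil and mast cell lists are highest in control 2 and control 3, where the T cell list is lowest.

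For most of the 10 genes the fewest fragments were in KO 1 or KO 3, the shallow libraries. In KO 1 the genes rested on 8 to 670 fragments (median 20.5) and in KO 3 on 2 to 610 (median 19.5), against 4 to 2765 in KO 2 (median 86) and medians of 91.5 to 407 in the controls. Of the 10 genes, 5 had under 20 fragments in KO 1 and 5 in KO 3, and Fasl and Il1a had at most 3 in KO 3. A floor of 3 fragments corresponded to 0.166 to 0.767 FPKM in KO 1 and 0.189 to 0.873 FPKM in KO 3, depending on gene length. In KO 1, 6 of the 10 genes, and in KO 3, 7, lay at or below the 95th percentile of the sensory receptor genes, against 0 in KO 2 and in each control. Genes below it in both libraries were Fasl, Il10, Il1b, Il1a, Il6 and Csf1. Tnf lay below it in KO 3 (4.87 against 5.80 FPKM) and above it in KO 1 (5.53 against 5.18 FPKM).

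In order of mean FPKM, KO cells had Tgfb1, Il2, Ifng, Tnf, Il6, Il1b, Il1a, Il10, Csf1 and Fasl, and control cells had Tgfb1, Tnf, Csf1, Il1b, Il6, Il1a, Il2, Fasl, Ifng and Il10. In each group only Tgfb1 was separated from its neighbour by ranges that did not overlap. Csf1 stood at rank 9 in KO cells and rank 3 in control cells, and Ifng at rank 3 in KO cells and rank 9 in control cells. High values in KO 1 and KO 3 carried the KO ranks of Ifng and Il2. In KO 2 these genes measured 0.473 and 0.238 FPKM, below Csf1 at 2.95 FPKM.

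**Figure D4:**
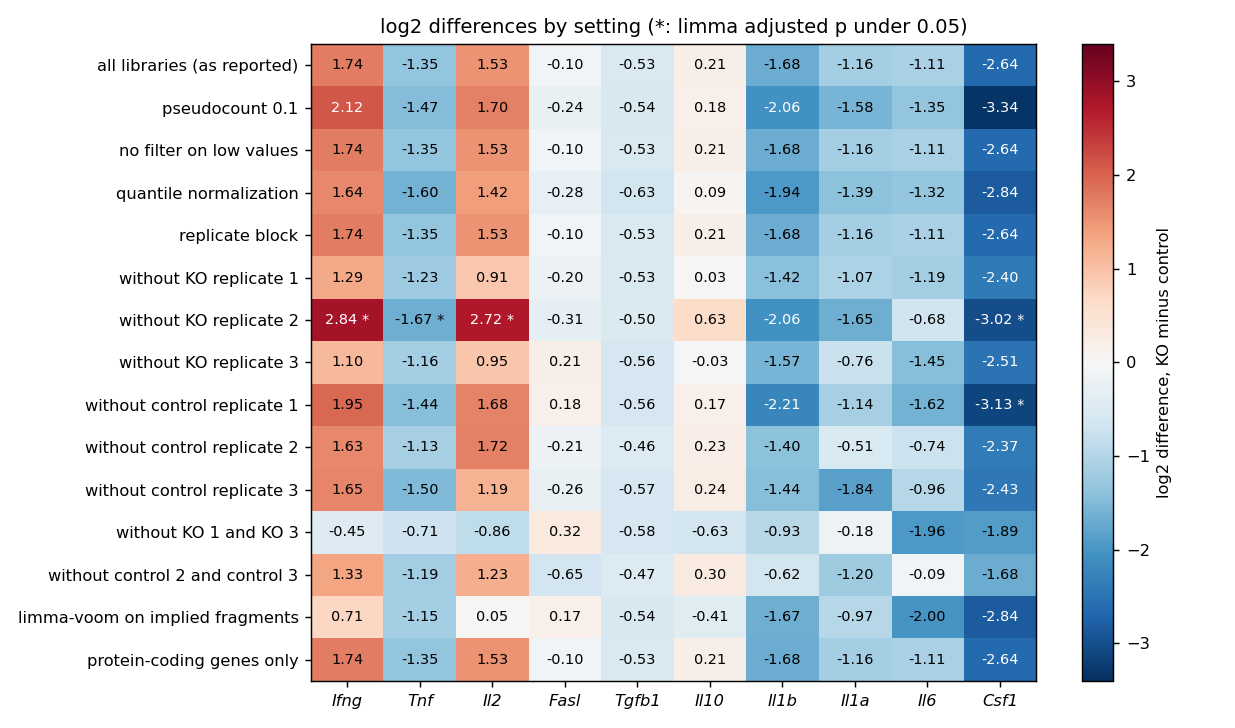
log2 differences (KO minus control) of the 10 genes under each setting, with asterisks for limma adjusted p under 0.05; rows with 2 libraries left out keep a single library in a group. Tnf, Tgfb1, Il1b, Il1a, Il6 and Csf1 are below 0 in every row, Ifng and Il2 turn negative without KO 1 and KO 3, and asterisks appear only without KO 2 or without control 1.

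Genes around these cytokines were read from 7 lists of 99 genes, of which 82 were tested. The limma test called 0 of the 82, with 14 at an unadjusted p under 0.05. Every KO library lay below every control for 14 (17.1%) and above for 2 (2.44%), beside the 9.44% and 6.70% of all genes given above. Single libraries decided calls here too. Without KO 2, where 12.1% of all genes were called higher and 0.960% lower, the limma test called 3 of the 82, Il12b (difference 2.09, adjusted p = 0.0264), Adam17 (-1.22, adjusted p = 0.0373) and Il1r2 (-2.16, adjusted p = 0.0150). Without control 1, where 1.05% of all genes were called higher and 1.55% lower, it called 5: Ltb (2.61), Il36g (-4.73), Nlrp3 (-2.88), Rhbdf2 (-1.82) and Casp1 (-1.74), with limma adjusted p from 0.0122 to 0.0468.

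Genes that process and release cytokines leaned lower. Of 12 tested, 10 had lower and 2 higher estimates, 6 had every KO library below every control, and the median log2 difference was -0.44. Adam17, the protease that sheds TNF from the cell surface, measured 10.5, 11.6 and 8.98 FPKM in KO 1, 2 and 3, against 19.2, 25.7 and 28.04 FPKM in control 1, 2 and 3. Its log2 difference was -1.15 (limma adjusted p = 0.417), and -0.84 with control 1 as the lone control. Rhbdf2, which escorts that protease to the surface, measured 6.35, 4.45 and 4.40 FPKM in KO 1, 2 and 3, against 9.80, 17.7 and 23.0 FPKM in control 1, 2 and 3 (difference -1.50). Casp1, which cleaves pro-interleukin 1 beta, and Nlrp3, a sensor that activates it, differed by -1.38 and -2.28, and by -0.65 and -1.06 with control 1 as the lone control. The other 2 of the 6, Furin, which cleaves the TGF-beta precursor, and Gsdmd, which forms the pore for interleukin 1 release, differed by -0.77 and -0.29. Casp1, Nlrp3, Furin and Gsdmd were chosen after their values were seen.

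Decoys and inhibitors split. Il1r2, a decoy receptor for interleukin 1, measured 4.14, 8.67 and 1.40 FPKM in KO 1, 2 and 3, against 14.8, 17.6 and 12.03 FPKM in control 1, 2 and 3, and the groups did not overlap. The receptor antagonist Il1rn measured 1.69, 12.1 and 1.74 FPKM in KO 1, 2 and 3, against 21.0, 26.6 and 5.18 FPKM in control 1, 2 and 3. Their log2 differences were -1.67 and -1.76, and -0.69 and -0.25 with KO 2 as the lone KO library. The list of 7 had 4 lower and 3 higher estimates and a median of -0.40.

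Receptors of the 10 cytokines showed no common direction. Of 18 tested, 8 had higher and 10 lower estimates, with a median of -0.04. Tnfrsf1b, a TNF receptor of lymphoid and myeloid cells, measured 63.9, 31.5 and 39.8 FPKM in KO 1, 2 and 3, against 56.0, 110 and 146 FPKM in control 1, 2 and 3. Tnfrsf1a, the widely expressed TNF receptor, measured 20.9, 17.4 and 36.0 FPKM in KO 1, 2 and 3, against 28.3, 52.8 and 65.7 FPKM in control 1, 2 and 3. With control 1 as the lone control their differences were -0.37 and -0.25, beside -1.14 and -0.94 with all libraries.

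Among other cytokines of T cells, 10 of 17 were tested, 4 with higher and 6 with lower estimates (median -0.37, but 0.20 with KO 2 as the lone KO library). Ltb, a membrane cytokine of lymphocytes, measured 499, 521 and 635 FPKM in KO 1, 2 and 3, against 386, 107 and 74.5 FPKM in control 1, 2 and 3, with no overlap between the groups. Its log2 difference was 1.91, and 0.51 with control 1 as the lone control, where the T cell markers summed to 1574 FPKM. Cd40lg, a helper ligand of CD4+ cells, measured 0, 0.490 and 0.532 FPKM in KO 1, 2 and 3, against 1.01, 1.81 and 1.17 FPKM in control 1, 2 and 3. Its count of 0 in KO 1 lay under the floor of 3 fragments, 0.702 FPKM there. Csf2, a growth factor of granulocytes and macrophages chosen after its values were seen, had 0, 14 and 0 fragments in KO 1, 2 and 3, against 10, 9 and 1 in control 1, 2 and 3. Il3 and Il5 had 1 fragment each, in KO 2. For Csf2 the floor of 3 fragments was 1.10 FPKM in KO 1 and 1.25 FPKM in KO 3.

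Among other cytokines of myeloid cells, 8 of 16 were tested, 2 with higher and 6 with lower estimates (median -0.48). Il36g (named Il1f9 in the annotation), an interleukin 1 relative of neutrophils and epithelia, measured 6.21, 6.65 and 6.26 FPKM in KO 1, 2 and 3, against 14.2, 185 and 203 FPKM in control 1, 2 and 3. Its log2 difference was -3.50, and -1.05 with control 1 as the lone control. Osm, oncostatin M, measured 5.79, 6.74 and 5.71 FPKM in KO 1, 2 and 3, against 9.22, 32.9 and 14.3 FPKM in control 1, 2 and 3 (difference -1.30). Neither passed the test, with limma adjusted p = 0.417 for both.

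**Figure D5:**
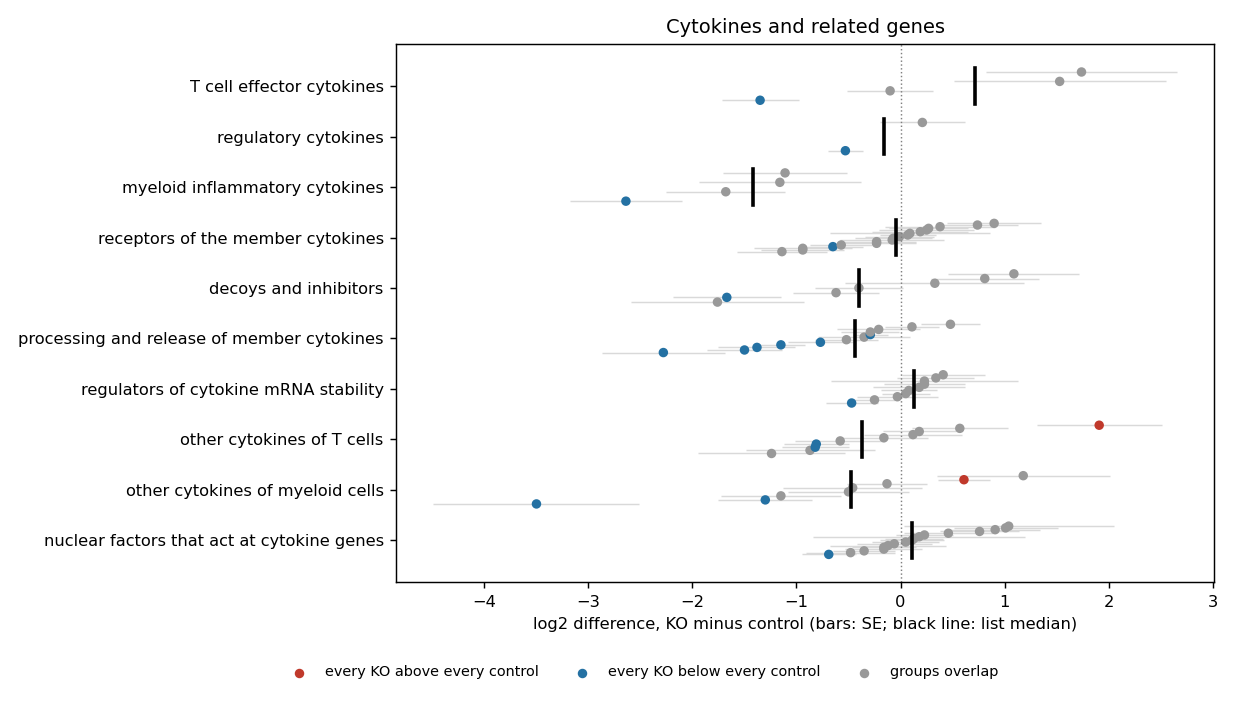
log2 differences (KO minus control) with SE for each tested gene of the cytokine groups and the 7 related lists; black lines give list medians, and colours mark genes whose groups do not overlap. Il36g at -3.50 lies farthest from 0, 6 of the 12 processing and release genes have every KO library below every control, and Ltb and Il16 are the related genes with every KO library above.

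Regulators of cytokine mRNA stability and nuclear factors that act at cytokine genes had medians of 0.13 and 0.11, next to the 0.10 of all genes. These signs turned with the setting: the medians were -0.29 and -0.43 with control 1 as the lone control, and -0.01 and -0.11 with quantile normalization, which placed all genes at -0.12. Zc3h12a, a nuclease that degrades Il6 and Il2 mRNA, measured 13.1, 12.97 and 8.66 FPKM in KO 1, 2 and 3, against 18.02, 13.5 and 17.3 FPKM in control 1, 2 and 3. Hnrnpd, an AU-rich element binder, measured 21.3, 27.9 and 24.4 FPKM in KO 1, 2 and 3, against 27.5, 33.3 and 27.3 FPKM in control 1, 2 and 3. Smad2, which carries TGF-beta signals, measured 12.6, 15.2 and 9.10 FPKM in KO 1, 2 and 3, against 17.1, 20.1 and 23.3 FPKM in control 1, 2 and 3. Relb, an NF-kappaB subunit, measured 56.4, 28.7 and 49.1 FPKM in KO 1, 2 and 3, against 40.2, 17.7 and 15.8 FPKM in control 1, 2 and 3. None of these 4 passed, with limma adjusted p from 0.417 to 0.537.

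Over the 6 libraries, the protein-coding genes whose log2 levels ran closest to a cytokine were found among 10816 genes. Closest to Ifng were Adh4, an alcohol dehydrogenase, Txndc8, a thioredoxin of spermatids, and Fstl4, with a Pearson r of 0.9997 for Adh4. Adh4 measured 27.4, 0.470 and 36.3 FPKM in KO 1, 2 and 3, against 2.33, 0.689 and 0.780 FPKM in control 1, 2 and 3. Closest to Il2 were Glrx2, Tspan6 and Hoxa5, a homeobox factor of body patterning that measured 10.6, 1.16 and 9.93 FPKM in KO 1, 2 and 3, against 2.34, 2.199 and 0.992 FPKM in control 1, 2 and 3. Il1b ran closest to Tpm3, Ly6c2, a surface protein of inflammatory monocytes (r = 0.996), and Tlr6. Csf1 ran closest to Arpc5, Gm21188 and Hspa13, Tnf to Isca2, Jpt2 and Snx6, and Il6 to Mgat4b, Spsb2 and Elane, the neutrophil elastase (r = 0.992). The libraries differ in depth and in marker RNA, and such an r over 6 points is a description only.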

How the data were processed

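CD8+ T cells of mouse spleen were sequenced in 3 KO and 3 control libraries, and the deposited files hold 1 value per gene in FPKM, a unit read from the values. The submitters' processing notes name the build mm8 and, with no role, HTSeq 0.6.0, HISAT2 and Bowtie2 2.2.3. Of 35458 gene identifiers, 35313 matched GENCODE M21. FPKM times exon length gave near-whole multiples of a value fixed within each library: of values under 200 fragments, 92.1% to 93.4% were within 0.02 of a whole number. Implied fragments, their exact 95% Poisson intervals and floors of 3 fragments came from these steps. limma 3.58.1 (R 4.3.3) was run on log2(FPKM + 1) with a trended variance and Benjamini-Hochberg adjustment at 0.05. It covered 13956 genes that reached 1 FPKM in 3 or more libraries. The fit was also run on simulated libraries, all drawn from the control means. Those lacked the differences in marker RNA between the libraries here, so no conclusion is drawn from them. An exact permutation test of 3 against 3 libraries cannot go below p = 0.1 and was not used. Alternatives changed the pseudocount, filter, normalization, gene set, libraries or model. The genes and lists were chosen with earlier results of these data known. Named from each related list are the 2 genes of smallest p, and for each cytokine the 3 protein-coding genes of highest Pearson r over the 6 libraries; other genes are stated as chosen later. 1 marker gene is not reported here.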

Additional observations from a re-analysis of the deposited data

How the results depend on the processing

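Each value was recomputed under 14 alternatives. Tnf, Tgfb1, Il1b, Il1a, Il6 and Csf1 kept their sign in all 14, and of 140 gene and setting pairs 126 kept direction and side of the threshold. Leaving out 1 library gave 0 to 1821 called genes (1821 without KO 2, 363 without control 1), 0 to 4 called cytokines (4 and 1), 0 to 5 called related genes (3 and 5), and 3 to 7 cytokines with no overlap between groups (7 and 5, where 45.0% and 43.1% of all genes had none); the median difference of the 10 genes was -0.85 to -0.48. With KO 2 as the lone KO library 7 cytokines had no overlap (54.1% of all genes), and with control 1 as the lone control 5 (39.6%). Such fits assume that the lone library varies like the others. The sign turned without KO 1 and KO 3 for Ifng (-0.45), Il2 (-0.86), Il10 (-0.63) and Fasl (0.32), without KO 3 for Il10 (-0.03) and Fasl (0.21), without control 1 for Fasl (0.18) (leaving out 1 library gave -0.03 to 0.63 for Il10 and -0.31 to 0.21 for Fasl), and with limma-voom on implied fragments for Il10 (-0.41) and Fasl (0.17); the cause was not tested. Deviations of libraries with the same replicate number correlated at 0.11, 0.02 and 0.02, and not every library correlated best with its own number. With 3 libraries per group, such correlations cannot decide whether the numbers pair the libraries. A fit with the replicate block called 0 genes and 0 cytokines. In KO 1 and KO 3, values near 3 fragments carry wide counting intervals.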

Other observations

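Some cytokines of dendritic and stromal cells, chosen after their values were seen, were also highest in KO 1 and KO 3. Of all genes tested, 24.2% had KO 1 and KO 3 both above KO 2 and every control. Il23a, Il33 and Tgfb2 were not among the genes tested. Il12b, a subunit of interleukin 12 and interleukin 23, measured 15.01, 0.900 and 9.14 FPKM in KO 1, 2 and 3, against 2.83, 0.812 and 2.84 FPKM in control 1, 2 and 3. These rest on 101, 26 and 54 fragments in the KO libraries, against 66, 24 and 84 in the controls. Il23a, the other subunit of interleukin 23, measured 6.64, 0.303 and 8.59 FPKM in KO 1, 2 and 3, against 0.564, 0.741 and 0.444 FPKM in control 1, 2 and 3. Il33, an alarmin of stromal cells, had 17, 0 and 24 fragments in KO 1, 2 and 3, against 2, 1 and 0 in control 1, 2 and 3. Tgfb2, a relative of Tgfb1, had 29, 6 and 38 fragments in KO 1, 2 and 3, against 13, 13 and 12 in control 1, 2 and 3. Il12b, Il23a, Il33 and Tgfb2 were high in the libraries where the sensory receptor genes were also high, and the part of that signal in their values was not tested. The 95th percentile of the receptor genes was 5.18 FPKM in KO 1 and 5.80 FPKM in KO 3. Il33 (1.72 and 2.77 FPKM) and Tgfb2 (1.46 and 2.18 FPKM) lay below it in KO 1 and KO 3, and Il12b and Il23a above it. Without KO 2 the limma adjusted p of Il12b was 0.0264 (difference 2.09), against 0.493 (difference 1.18) with all libraries.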
